A study of Rattus norvegicus with 8 samples.

Results

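The 41 genes described here encode the enzymes of glycolysis and gluconeogenesis, the transporters that carry glucose and lactate across the cell membrane, and the hypoxia-inducible factors (HIF) with their regulators and target genes. The genes were chosen with earlier results of these data known. Their probes were matched by gene name, older synonym or RefSeq accession, without use of any measured value. All 41 had a probe on the array, 51 of the 41012 gene probes in all, and 38 were bright enough to be tested among 24462 genes. Their RNA was measured in kidneys of Dark Agouti rats that had been transplanted into male Lewis recipients of another tissue type (MHC) whose own kidneys had both been removed. Every graft had been cooled with University of Wisconsin solution, held at 4 °C for 25 min and collected 24 h after surgery, and all rats weighed between 120 and 250 g. The labels call the 2 kidneys of each of the 4 groups biological replicates. High-difference grafts came from donors 20 to 50% lighter than the recipient, and low-difference grafts from donors 0 to 20% lighter. In 2 further groups of high-difference grafts the recipient was given 500 µg of a neutralizing antibody to the interleukin-6 receptor (anti-IL6R), or prednisolone, a glucocorticoid, at 15 mg/kg, each as 1 intravenous injection directly after surgery. No ungrafted kidney and no graft between rats of 1 strain is analysed here.

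Glycolysis splits glucose into pyruvate, which lactate dehydrogenase can turn into lactate, while gluconeogenesis runs the other way through a few enzymes of its own. In the kidney, gluconeogenesis belongs to the proximal tubule, which burns fatty acids and lactate and uses little glucose, and glycolysis belongs more to the distal nephron, the medulla and infiltrating cells. When oxygen falls, the prolyl hydroxylases that mark the HIF alpha subunits for destruction slow down, and HIF raises transcription of glucose transporters, most glycolytic enzymes and a set of other genes.

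All 7 kidney genes used to check the tissue, from tubule, podocyte and collecting duct, were well above background on all 8 arrays. Between 64.5% and 74.0% of gene probes were well above background on an array, with the lowest shares on the second prednisolone array and both untreated high-difference arrays. Across all genes tested, the 2 arrays of a group correlated at 0.956 for prednisolone and at 0.981 to 0.992 for the other groups. The prednisolone arrays also differed most over the genes described here: their median gap was 0.68 log2 units, and 14 of 38 genes differed by more than 1 log2 unit between them, against 6, 3 and 1 genes in the high-difference, low-difference and anti-IL6R pairs. The 4 untreated arrays lay on slide 1 and the 4 treated arrays on slide 2, so that treatment and slide cannot be told apart in any comparison of a treated with an untreated group. A level below is a log2 signal minus the array's own 75th percentile, so that 0 is the level of a probe at that percentile, and levels of different genes are not set against each other. Differences are limma estimates with their standard error (SE), and a gene counts as changed where its p, adjusted by Benjamini-Hochberg over all genes tested, is under 0.05.

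HIF binds DNA at a core of the letters ACGTG or GCGTG, and such cores were searched in the RefSeq promoters of the rat assembly GRCr8, from 250 bases before the transcription start to 50 bases after it, on both strands, with overlapping matches counted each. Promoters were found for 37 of the 41 genes, and 3 genes had several, which gave 41 promoters. No promoter entry was matched for Pcx, Slc2a3, Pgk1 and Ndrg1. Of the 41 promoters, 27 held at least 1 core (65.9%, Wilson 95% interval 50.5 to 78.4%), beside 13937 of all 33469 promoters of the same length (41.6%). The promoters of these genes were also richer in GC, at a median of 63.6% against 51.2%, and in CG pairs, at a median of 16 against 5 over the 250 bases before the start; the part of base composition in the share was not tested. A match is a run of letters and not a measured binding site, and binding was not measured in this series.

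The promoters shown are examples with many, few and no cores: those of the lactate dehydrogenase pair, of P4ha2 and Slc2a1 as hypoxia targets, and of G6pc for gluconeogenesis. Capitals mark the cores on either strand, and each sequence runs 5′ to 3′ along its gene. The stretches are chr1:106507990-106508091 on the plus strand for Ldha, chr4:177177492-177177526 on the minus strand for Ldhb, chr10:38743717-38743872 on the plus strand for P4ha2, chr5:138002354-138002521 on the plus strand for Slc2a1 and chr10:86807584-86807658 on the plus strand for G6pc, all GRCr8.
Ldha: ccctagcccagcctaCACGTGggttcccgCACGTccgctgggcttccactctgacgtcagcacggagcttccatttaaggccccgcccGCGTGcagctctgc
Ldhb: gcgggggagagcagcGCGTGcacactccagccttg
P4ha2: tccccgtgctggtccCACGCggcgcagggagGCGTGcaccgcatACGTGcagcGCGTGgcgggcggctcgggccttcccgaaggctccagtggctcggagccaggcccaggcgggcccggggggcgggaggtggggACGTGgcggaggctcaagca
Slc2a1: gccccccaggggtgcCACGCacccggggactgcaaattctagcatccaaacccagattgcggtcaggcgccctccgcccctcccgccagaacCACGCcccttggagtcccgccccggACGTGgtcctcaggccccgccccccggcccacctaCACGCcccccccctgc
G6pc: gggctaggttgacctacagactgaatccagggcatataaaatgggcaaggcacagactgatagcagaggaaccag
Within the 250 bases before its start, Ldha held 4 matches, P4ha2 held 5, Slc2a1 held 4 and Ldhb held 1. G6pc held none in the whole window, and neither did Pck1, while the third gluconeogenic promoter, that of Fbp1, held 1. The promoters of Slc16a3, Pkm and Adm, whose levels are described below, also held none. Of these, Slc16a3 and Pkm were higher in high-difference grafts and Adm was lower. None of these differences passed the adjusted threshold, cores outside the window were not searched, and any relation of cores to the levels was not tested.

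In untreated high-difference grafts, the 3 transporters measured were higher than in low-difference grafts, the 4 genes of gluconeogenesis were lower and the other role groups were mixed, but no gene passed the adjusted threshold. The lactate exporter gene Slc16a3 was higher by 1.26 log2 units (SE 0.45), and G6pc was lower, at -2.38 (SE 0.90). Ddit4 and Adm, which hypoxia induces, were lower too, at -0.68 (SE 0.22) and -1.0 (SE 0.36). At the lower end of glycolysis Ldha and Pkm were higher, by 0.86 (SE 0.33) and 0.65 (SE 0.24), and their counterparts Ldhb and Pklr lower, at -0.94 (SE 0.36) and -1.38 (SE 1.1). Of the 38 genes tested, 21 were higher and 17 lower. Their median difference was 0.09, beside 0.07 over all genes tested, of which 56% were higher and 44% lower. The percentage of all genes called at the adjusted threshold was 0%, and the lowest adjusted p among the 38 was 0.31. At an unadjusted p under 0.05, 5 were higher and 4 lower, where 14.7% of all genes tested were past it, 8.24% higher and 6.43% lower. The 2 arrays of each group did not overlap for 16 genes that were higher and 11 that were lower, where the share over all genes was 33.5% higher and 23% lower. At an unadjusted p under 0.05 were 9 of the 38 genes and 3589 of all 24462 genes tested. Without the prednisolone group these counts were 15 and 5728. The split of 21 and 17 was 18 and 20 without the second high-difference array and 20 and 18 without the first low-difference array.

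Under anti-IL6R, the gluconeogenic genes G6pc, Pck1, Fbp1 and Pcx were higher than in untreated high-difference grafts, and Hif1a, P4ha2, Slc2a1, Slc16a3 and Pkm were lower. Adm and Ldhb were higher as well. No gene described here passed the adjusted threshold, and the lowest adjusted p was 0.21, for G6pc. Of the 38 genes, 21 were higher and 17 lower, with a median of 0.03, beside -0.09 over all genes, of which 43.2% were higher and 56.8% lower. That split was 25 and 13 with quantile normalization and 17 and 21 with normexp background correction. The percentage of all genes called was 0% at the adjusted threshold and 17.7% at an unadjusted p under 0.05, 7.09% higher and 10.6% lower, where 3 of the 38 genes were higher and 3 lower. Arrays of the groups did not overlap for 13 genes that were higher and 12 that were lower, where the share over all genes was 23.5% higher and 36.3% lower. Hk2, among the 13, passed the filter only through the anti-IL6R arrays. At an unadjusted p under 0.05, the 6 genes stood beside 4333 of all 24462. Without the prednisolone group these counts were 12 and 6322. The split of 21 and 17 was 19 and 19 without the first high-difference array and 22 and 16 without the second. The untreated high-difference arrays are the reference here and the first term of the comparison with low-difference grafts, so a deviation of those arrays enters both with opposite sign.

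With prednisolone, G6pc, Adm and Ldhb were higher than in untreated high-difference grafts and Aldoc, Pkm and P4ha2 were lower, again without an adjusted p under 0.05, the lowest being 0.39 for Aldoc. Of the 38 genes, 15 were higher and 23 lower, with a median of -0.18, beside -0.08 over all genes, of which 42.4% were higher and 57.6% lower, and the split was 20 and 18 with quantile normalization. The percentage of all genes called was 0% at the adjusted threshold and 11.8% at an unadjusted p under 0.05, 4.25% higher and 7.58% lower, where 1 of the 38 genes was higher and 1 lower. Arrays did not overlap for 4 genes that were higher and 9 that were lower, where the share over all genes was 13.9% higher and 25% lower. Without the low-difference group, 0 of the 38 genes and 2264 of all 24462 had an unadjusted p under 0.05. With all groups these counts were 2 and 2893. The split of 15 and 23 was 18 and 20 without the first prednisolone array and 11 and 27 without the second. The same high-difference arrays serve as reference for both treatments.

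**Figure D1:**
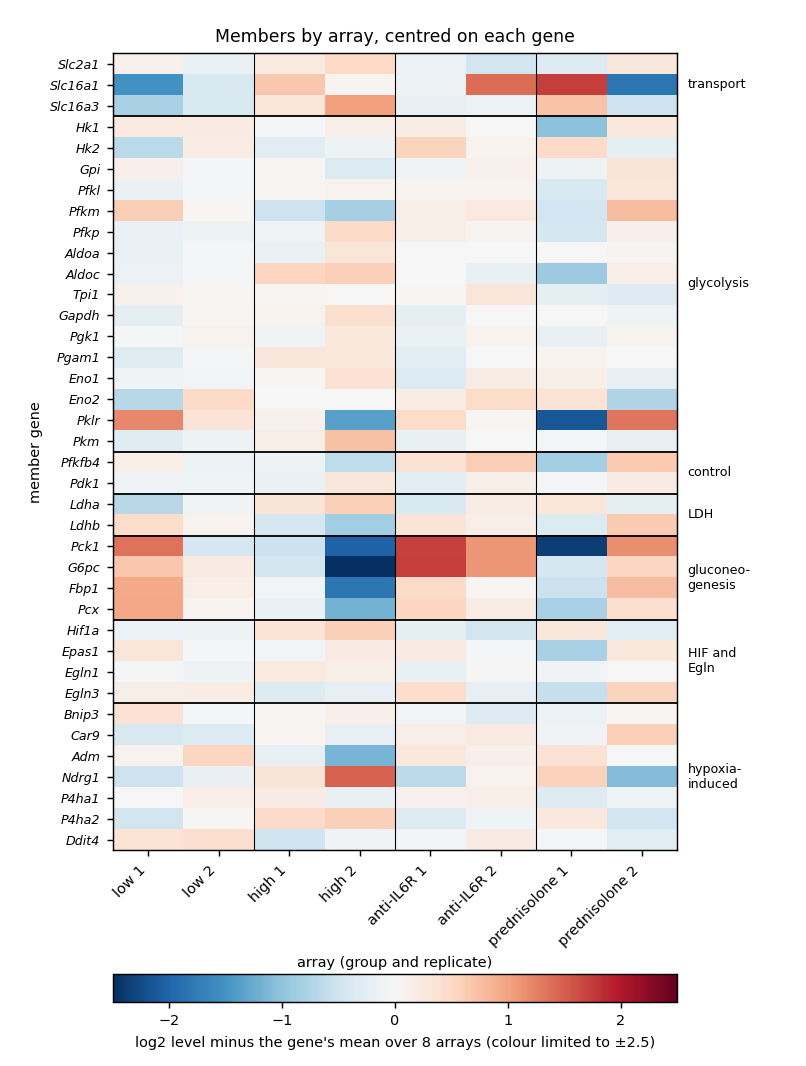
Level of each of the 38 tested genes (rows, grouped by role) on each of the 8 arrays (columns, by group and replicate), as the log2 level minus the gene's own mean over the 8 arrays, with the colour limited to 2.5 log2 units either way. The gluconeogenic genes were lowest on the second high-difference array and, for Pck1, on the first prednisolone array.

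Of the glucose and lactate transporters, 3 of 4 were measured. Slc2a1 encodes GLUT1, the glucose transporter of most cells and a HIF target. Its levels were 2.41 and 2.70 in high-difference grafts, 2.30 and 2.03 in low-difference grafts, 2.04 and 1.73 with anti-IL6R, and 1.87 and 2.47 with prednisolone. Both untreated high-difference arrays lay above both low-difference and both anti-IL6R arrays, and the second prednisolone array lay among them. The difference was 0.38 (SE 0.27, adjusted p 0.49) from low-difference grafts, -0.66 (SE 0.27, adjusted p 0.28) under anti-IL6R and -0.38 (SE 0.27, adjusted p 0.58) with prednisolone.

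Slc16a3 encodes MCT4, which carries lactate out of glycolytic cells. Its levels were 1.46 and 2.20 in high-difference grafts, 0.35 and 0.79 in low-difference grafts, 0.97 and 1.02 with anti-IL6R, and 1.88 and 0.65 with prednisolone. High-difference arrays were above the low-difference and anti-IL6R arrays without overlap, and the prednisolone arrays lay on both sides. The difference from low-difference grafts was 1.26 (SE 0.45, adjusted p 0.32), a 2.39-fold higher signal, and the difference under anti-IL6R was -0.83 (SE 0.45, adjusted p 0.37). With prednisolone it was -0.56 (SE 0.45, adjusted p 0.61), and 0.05 without the second prednisolone array. Slc16a1, the gene of the lactate and pyruvate transporter MCT1, varied so much within groups, from 0.48 to -3.07 between the prednisolone arrays, that its difference of 1.31 between high and low difference had an SE of 1.15. Slc2a3, the gene of the high-affinity transporter GLUT3, was well above background on 0 of 8 arrays, with signals between -8.09 and -5.89.

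Among the 16 glycolytic enzymes, 11 were higher and 5 lower in high-difference than in low-difference grafts, with a median of 0.15, and 1 of them, Pkm, was at an unadjusted p under 0.05. That split was 8 and 8 without the second high-difference array (median 0.03) and without the first low-difference array (median 0.05). Under anti-IL6R 8 were higher and 8 lower (median -0.02), but 12 and 4 with quantile normalization (median 0.09). Among the 15 well above background on all 8 arrays, which leave out Hk2, 7 were higher and 8 lower (median -0.07). With prednisolone 4 were higher and 12 lower (median -0.22), but 9 and 7 with quantile normalization (median 0.01), so the direction of this group against untreated high-difference grafts depended on the scaling. Gpi, Pfkl, Aldoa, Tpi1, Pgk1 and Eno1, which carry the common steps, differed between high and low difference by -0.21 to 0.27, each by about its SE or less. Tpi1 changed sign, from -0.04 to 0.08, with normexp background correction. Gapdh was at 7.82 and 8.13 in high-difference grafts and at 7.48 and 7.78 in low-difference grafts, and these differed by 0.35 (SE 0.22). Under anti-IL6R Gapdh was at -0.36 (SE 0.22), and with quantile normalization at 0.07, and Aldoa, Eno1 and Pgk1 turned to higher under that scaling too.

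Pkm and Pklr encode the pyruvate kinases of most tissues and of liver, kidney cortex and red cells. Pkm was at 4.64 and 5.23 in high-difference grafts, 4.19 and 4.37 in low-difference grafts, 4.31 and 4.48 with anti-IL6R, and 4.44 and 4.29 with prednisolone. Both high-difference arrays stood above all 6 others, and those 6 overlapped. The difference was 0.65 (SE 0.24, adjusted p 0.32) from low-difference grafts, -0.53 (SE 0.24, adjusted p 0.31) under anti-IL6R and -0.57 (SE 0.24, adjusted p 0.43) with prednisolone. Pklr ran from 0.21 to -1.27 in high-difference grafts, 1.30 and 0.41 in low-difference grafts, 0.55 and 0.15 with anti-IL6R, and -2.02 and 1.43 with prednisolone. Its differences of -1.38, 0.88 and 0.23 (SE 1.1 each) were within the spread between replicates, and the prednisolone difference was -0.51 without the second high-difference array and -1.49 without the second prednisolone array. Within an array, the log2 ratio of Pkm to Pklr was thus higher by 2.03 in high-difference than in low-difference grafts, lower under anti-IL6R (-1.41) and lower with prednisolone (-0.80). This ratio was not tested. Around its mean over all arrays it was 0.03 and 2.1 in high-difference grafts and -1.51 and -0.44 in low-difference grafts. With anti-IL6R it was -0.64 and -0.07, so the second of these lay close to the first high-difference array. The 2 prednisolone arrays stood at 2.06 and -1.54 around the mean ratio of all arrays, so that no direction held for that group.

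Of the isoforms with a tissue pattern, Pfkm, the muscle form of phosphofructokinase, was at 2.05 and 1.74 in high-difference grafts and at 3.19 and 2.63 in low-difference grafts, without overlap. That difference was -1.02 (SE 0.43, adjusted p 0.34). Aldoc, the brain-type aldolase, was at -3.94 and -3.88 in high-difference grafts, -4.63 and -4.53 in low-difference grafts, -4.50 and -4.67 with anti-IL6R, and -5.40 and -4.31 with prednisolone. All 6 other arrays lay below both high-difference arrays. The difference was 0.67 (SE 0.35, adjusted p 0.39) from low-difference grafts, -0.68 (SE 0.35, adjusted p 0.35) under anti-IL6R and -0.95 (SE 0.35, adjusted p 0.39) with prednisolone. Hk2, the inducible hexokinase, was at -6.02 and -5.85, -6.40 and -5.54, -5.18 and -5.64, and -5.26 and -5.96 in the same order of groups, and was well above background on 4 of the 8 arrays, both anti-IL6R arrays among them and no untreated high-difference array. Hk2 passed the filter only through the anti-IL6R pair, so its higher signal in that group is not read as a result. That signal was at least 1.03-fold above the untreated high-difference arrays' limit. Under normexp background correction the difference had the other sign (-0.45). Hk1, the main hexokinase of the kidney, ranged from 4.54 to 4.82 on 7 arrays and was 3.53 on the first prednisolone array, where its second probe was lowest too.

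Of the 3 regulators of the pathway, 2 were tested. Pdk1, the kinase that keeps pyruvate out of the mitochondrion, was at -1.18 and -0.72 in high-difference grafts, -1.09 and -1.11 in low-difference grafts, -1.26 and -0.85 with anti-IL6R, and -1.03 and -0.80 with prednisolone. The arrays of the groups overlapped, and the differences were 0.15, -0.10 and 0.04 (SE 0.24 each). Pfkfb3, whose product makes the strongest activator of phosphofructokinase, did not pass the filter: it was well above background on the second high-difference, the second anti-IL6R and the first prednisolone array. On the other 5 arrays it has only an upper bound, and no order of the groups is given for it. Pfkfb4, a related enzyme, was at -3.21 and -3.72 in high-difference grafts, -2.91 and -3.23 in low-difference grafts, -2.72 and -2.47 with anti-IL6R, and -3.92 and -2.43 with prednisolone. The anti-IL6R arrays lay above both untreated high-difference arrays, and the prednisolone arrays were the lowest and the highest of the 8. The difference was -0.40 (SE 0.48) between high and low difference and 0.87 (SE 0.48, adjusted p 0.37) under anti-IL6R.

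The lactate dehydrogenase subunits went opposite ways. The A subunit, encoded by Ldha, favours the step from pyruvate to lactate and is a HIF target, and the B subunit, encoded by Ldhb, is the form of oxidative tissue. Ldha was at 4.67 and 4.96 in high-difference grafts, 3.66 and 4.26 in low-difference grafts, 3.98 and 4.54 with anti-IL6R, and 4.66 and 4.11 with prednisolone. Ldhb was at 5.75 and 5.32, 6.65 and 6.29, 6.51 and 6.33, and 5.85 and 6.84 in the same order. The high-difference arrays held the highest Ldha levels and the lowest Ldhb levels of the 8 arrays, with the first prednisolone array close to them for both genes. For Ldha the difference was 0.86 (SE 0.33, adjusted p 0.33) from low-difference grafts, -0.55 (SE 0.33, adjusted p 0.41) under anti-IL6R and -0.43 (SE 0.33, adjusted p 0.60) with prednisolone. For Ldhb it was -0.94 (SE 0.36, adjusted p 0.33), 0.88 (SE 0.36, adjusted p 0.28) and 0.81 (SE 0.36, adjusted p 0.44). The log2 ratio of Ldha to Ldhb within an array, centred on its mean over the arrays, was 0.76 and 1.48 in high-difference grafts, -1.16 and -0.19 in low-difference grafts, -0.69 and 0.05 with anti-IL6R, and 0.65 and -0.89 with prednisolone. It was thus higher by 1.79 in high-difference than in low-difference grafts and at -1.43 under anti-IL6R against untreated high-difference grafts. The ratio itself was not tested.

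**Figure D2:**
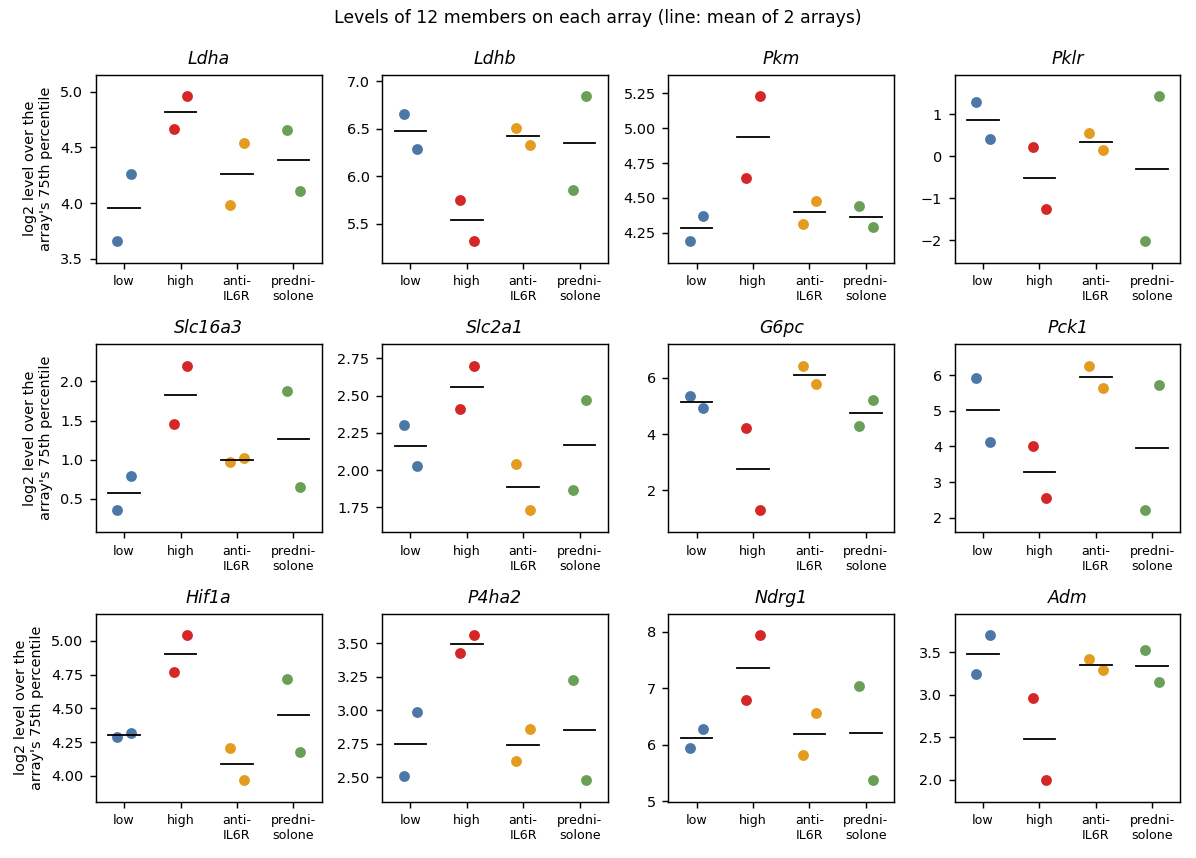
Levels of 12 of the genes on each array (points) with the mean of the 2 arrays of a group (line), as log2 signal minus the array's 75th percentile; each panel has its own vertical scale. Ldha, Pkm, Slc16a3, Hif1a, P4ha2 and Ndrg1 had their highest group mean in the untreated high-difference grafts, and Ldhb, Pklr, G6pc, Pck1 and Adm their lowest.

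All 4 gluconeogenic genes were lower in high-difference than in low-difference grafts, and all 4 were higher under anti-IL6R than in untreated high-difference grafts, in both cases without overlap of the arrays. Over all genes, 23% were lower without overlap in the first comparison and 23.5% higher without overlap in the second. Both comparisons use the same untreated high-difference arrays. The median difference was -1.62 and 1.94, and no single gene passed the adjusted threshold. G6pc encodes the catalytic subunit of glucose-6-phosphatase, the last step, which releases free glucose. Its levels were 4.22 and 1.29 in high-difference grafts, 5.36 and 4.91 in low-difference grafts, 6.42 and 5.78 with anti-IL6R, and 4.27 and 5.21 with prednisolone. The second high-difference array was lowest of all 8, and the first was below every array outside its group, just under the first prednisolone array. The difference was -2.38 (SE 0.90, adjusted p 0.33) from low-difference grafts, 3.34 (SE 0.90, adjusted p 0.21), or 10.1-fold, under anti-IL6R and 1.99 (SE 0.90, adjusted p 0.45) with prednisolone. Without the second high-difference array these were -0.91, 1.87 and 0.52, and without the first -3.85, 4.81 and 3.45.

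Pck1 encodes phosphoenolpyruvate carboxykinase, the enzyme that commits oxaloacetate to glucose. Its levels were 4.02 and 2.54 in high-difference grafts, 5.92 and 4.13 in low-difference grafts, 6.27 and 5.65 with anti-IL6R, and 2.20 and 5.72 with prednisolone. The high-difference arrays were below all low-difference and anti-IL6R arrays, and the prednisolone arrays were the lowest and the third highest of the 8. The difference was -1.75 (SE 1.21, adjusted p 0.48) from low-difference grafts, 2.68 (SE 1.21, adjusted p 0.31) under anti-IL6R and 0.68 (SE 1.21, adjusted p 0.83) with prednisolone. The prednisolone difference turned to -0.06 without the second high-difference array and to -1.08 without the second prednisolone array.

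Fbp1 encodes fructose-1,6-bisphosphatase, which reverses the phosphofructokinase step, and Pcx the pyruvate carboxylase that opens the pathway. Fbp1 was at 7.49 and 5.74 in high-difference grafts, 8.51 and 7.72 in low-difference grafts, 8.03 and 7.60 with anti-IL6R, and 7.02 and 8.33 with prednisolone. Pcx was at 4.72 and 3.69, 5.84 and 4.95, 5.42 and 5.07, and 4.07 and 5.29 in the same order. For both genes the second high-difference array was the lowest of the 8, and the prednisolone arrays lay on either side of the first. Fbp1 differed by -1.50 (SE 0.68, adjusted p 0.36), 1.20 (SE 0.68, adjusted p 0.39) and 1.06 (SE 0.68, adjusted p 0.55), and Pcx by -1.19 (SE 0.54, adjusted p 0.36), 1.04 (SE 0.54, adjusted p 0.36) and 0.47 (SE 0.54, adjusted p 0.73). The median of the 4 genes was -0.79 between high and low difference and 1.20 under anti-IL6R without the second high-difference array, and -2.43 and 2.75 without the first. With prednisolone the median was 0.87 with all 4 higher, but 2 were higher and 2 lower without the second high-difference array (median 0.07) or without the second prednisolone array (median 0.13). Pcx was then at -0.05 and -0.14, and Pck1 changed sign as above.

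Markers of the proximal tubule, the segment that holds these 4 enzymes, differed in the same direction. Of 14 such markers, all well above background on all 8 arrays, 11 were lower in high-difference than in low-difference grafts (median -0.76) and 11 were higher under anti-IL6R than in untreated high-difference grafts (median 0.97). With prednisolone 8 were higher and 6 lower (median 0.18). Their median centred level was at 0.20 and -1.1 in high-difference grafts, 0.61 and 0.28 in low-difference grafts, 0.41 and 0.30 with anti-IL6R, and -0.46 and 0.25 with prednisolone. The gluconeogenic genes stood at -0.31 and -1.91, 0.96 and 0.11, 1.12 and 0.64, and -0.67 and 0.65, with the second high-difference array lowest and the first prednisolone array next lowest for both lists. The summed signal of the 14 markers ranged from 8.93 to 9.84 log2 units in high-difference grafts, 9.66 to 9.99 in low-difference grafts, 9.66 to 9.68 with anti-IL6R and 9.31 to 9.64 with prednisolone. In RNA of whole tissue, fewer cells of a type and less RNA of a gene per cell cannot be told apart, and the part of the proximal tubule markers in the gluconeogenic differences was not tested.

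**Figure D3:**
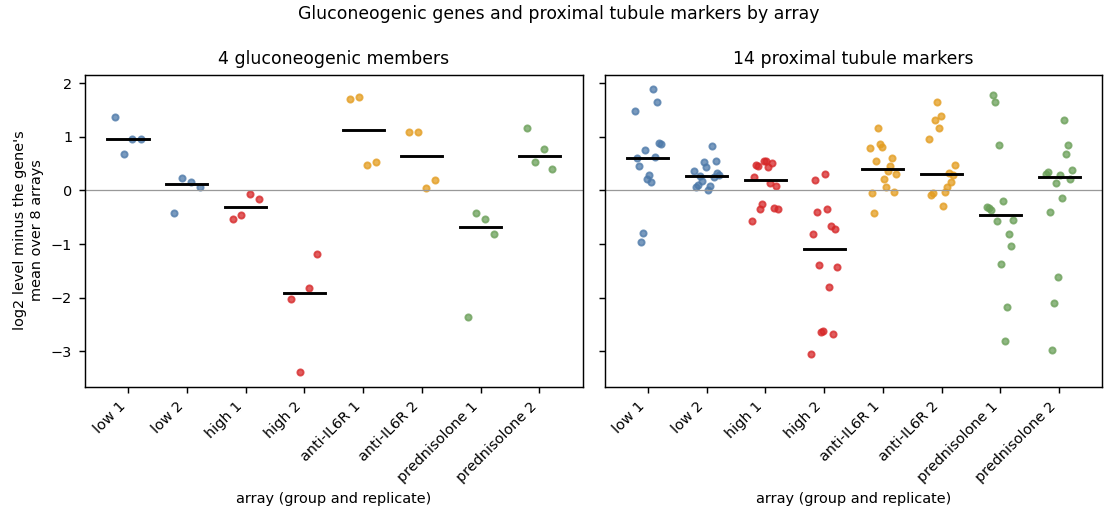
Each gene's log2 level minus its mean over the 8 arrays (points) and the median of the list (line) on each array, for the 4 gluconeogenic genes (left) and 14 proximal tubule markers (right). In both panels the median was lowest on the second high-difference array, at -1.91 and -1.1.

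Markers of other cell types also differed between the groups. Here too, fewer cells of a type and less RNA of a gene per cell cannot be told apart. Of 11 leukocyte markers, 10 were lower in high-difference than in low-difference grafts (median -1.38), and all 11 were higher under anti-IL6R (median 1.54) and with prednisolone (median 1.20) than in untreated high-difference grafts; their summed signal ranged from 3.58 to 4.08 in high-difference grafts, 4.78 to 5.20 in low-difference grafts, 4.91 to 5.48 with anti-IL6R and 3.97 to 5.60 with prednisolone. Of 11 markers of the loop of Henle and distal nephron, 11 were lower in high-difference grafts (median -1.40). All 11 were higher under anti-IL6R (median 1.07) and with prednisolone (median 0.53). All 8 endothelial markers were lower in high-difference grafts (median -0.78) and higher under anti-IL6R (median 1.20) and with prednisolone (median 0.77). Of 8 fibroblast and pericyte markers, 7 were lower in high-difference grafts (median -1.09) and 7 higher under anti-IL6R (median 1.59). With prednisolone 4 of these were higher and 4 lower (median 0.22). The 3 neutrophil markers tested and the 4 of red blood cells had medians of 0.33 and -0.75 between high and low difference. Their medians were 1.36 and -0.35 under anti-IL6R and 1.01 and 0.39 with prednisolone. In high-difference against low-difference grafts, leukocyte, distal nephron, endothelial, fibroblast and red blood cell markers were lower by their median, and neutrophil markers higher. The part of these cell types in the differences of the glycolytic and hypoxia genes was not tested.

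Hif1a encodes the alpha subunit of HIF-1, which is controlled mostly at the level of the protein. Its RNA was at 4.77 and 5.04 in high-difference grafts, 4.29 and 4.32 in low-difference grafts, 4.21 and 3.97 with anti-IL6R, and 4.72 and 4.18 with prednisolone. Both high-difference arrays were above the 6 others, with the first prednisolone array just below them. The difference was 0.60 (SE 0.24, adjusted p 0.33) from low-difference grafts, -0.81 (SE 0.24, adjusted p 0.22) under anti-IL6R and -0.45 (SE 0.24, adjusted p 0.49) with prednisolone. A second Hif1a probe gave 0.56 between high and low difference. Epas1, the gene of HIF-2 alpha, which acts in endothelial and interstitial cells of the kidney, was at -1.18 and -0.90, -0.80 and -1.14, -0.90 and -1.16, and -1.91 and -0.83 in the same order. Its groups overlapped, its differences of -0.07, 0.01 and -0.33 were each below the SE of 0.37, and the sign of each depended on single arrays or on the scaling.

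The prolyl hydroxylases that mark HIF for degradation include Egln1, the main oxygen sensor, and Egln3, itself a strongly induced HIF target. Egln1 was at 1.39 and 1.29 in high-difference grafts, above all other arrays, which ranged from 0.96 to 1.17. The Egln1 differences were 0.28, -0.28 and -0.24 (SE 0.18 each). Egln3 was at -0.22 and -0.10 in high-difference grafts, 0.24 and 0.28 in low-difference grafts, 0.54 and -0.11 with anti-IL6R, and -0.47 and 0.66 with prednisolone. It was thus lower, not higher, in high-difference than in low-difference grafts, by a difference of -0.42 within about 1 SE (0.40), and at 0.38 and 0.25 under the treatments, where the arrays overlapped.

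The other genes that HIF is known to induce did not share a direction: 3 of 7 were higher and 4 lower in high-difference than in low-difference grafts (median -0.06; 5 and 2 with normexp background correction), 4 higher and 3 lower under anti-IL6R (median 0.13), and 3 higher and 4 lower with prednisolone (median -0.14). P4ha2, a collagen prolyl hydroxylase subunit, was at 3.43 and 3.56 in high-difference grafts, 2.51 and 2.99 in low-difference grafts, 2.62 and 2.86 with anti-IL6R, and 3.23 and 2.48 with prednisolone. The high-difference arrays stood above all 6 others. The difference was 0.74 (SE 0.31, adjusted p 0.34), -0.75 (SE 0.31, adjusted p 0.28) and -0.64 (SE 0.31, adjusted p 0.46). Its relative P4ha1 differed by -0.08 (SE 0.21) from low-difference grafts, with overlapping arrays, and turned to 0.04 with normexp background correction.

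Ndrg1, a stress-induced gene that hypoxia raises in many cells, was at 6.79 and 7.94 in high-difference grafts, 5.95 and 6.28 in low-difference grafts, 5.82 and 6.57 with anti-IL6R, and 7.05 and 5.38 with prednisolone. The second high-difference array was the highest of the 8, and the first lay below the first prednisolone array. The difference was 1.25 (SE 0.63, adjusted p 0.39), -1.17 (SE 0.63, adjusted p 0.37) and -1.15 (SE 0.63, adjusted p 0.50). Car9, the gene of a membrane carbonic anhydrase and a common marker of hypoxia in tumours, was at -3.39 and -3.65, -3.84 and -3.78, -3.28 and -3.21, and -3.53 and -2.84. It lay at low levels throughout, with differences of 0.29, 0.27 and 0.33 (SE 0.26 each), and the difference under anti-IL6R was -0.01 with normexp background correction.

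Adm and Ddit4 stood lower in high-difference grafts. Adm encodes adrenomedullin, a vasodilator peptide that hypoxia induces, and was at 2.96 and 2.0 in high-difference grafts, 3.25 and 3.70 in low-difference grafts, 3.42 and 3.29 with anti-IL6R, and 3.53 and 3.15 with prednisolone. Both high-difference arrays were below all 6 others. The difference was -1.0 (SE 0.36, adjusted p 0.32), 0.87 (SE 0.36, adjusted p 0.28) and 0.86 (SE 0.36, adjusted p 0.42), and without the second high-difference array it was -0.52, 0.39 and 0.38. Ddit4 encodes an inhibitor of the growth kinase mTORC1 that hypoxia and glucocorticoids both raise. It was at -1.78 and -1.36 in high-difference grafts, -0.93 and -0.85 in low-difference grafts, -1.34 and -1.06 with anti-IL6R, and -1.31 and -1.55 with prednisolone. The low-difference arrays were the highest of the 8, the anti-IL6R arrays lay just above the high-difference arrays and the prednisolone arrays overlapped them. The difference was -0.68 (SE 0.22, adjusted p 0.31), 0.37 (SE 0.22, adjusted p 0.41) and 0.14 (SE 0.22, adjusted p 0.81).

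Bnip3, a mitophagy gene, differed by -0.06, -0.29 and -0.14 (SE 0.22 each), and the first of these was 0.06 with normexp background correction. Epo, the hormone that interstitial cells of the hypoxic kidney secrete, was well above background on 0 of 8 arrays, with signals between -8.49 and -7.18, so no difference is given for it.

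**Figure D4:**
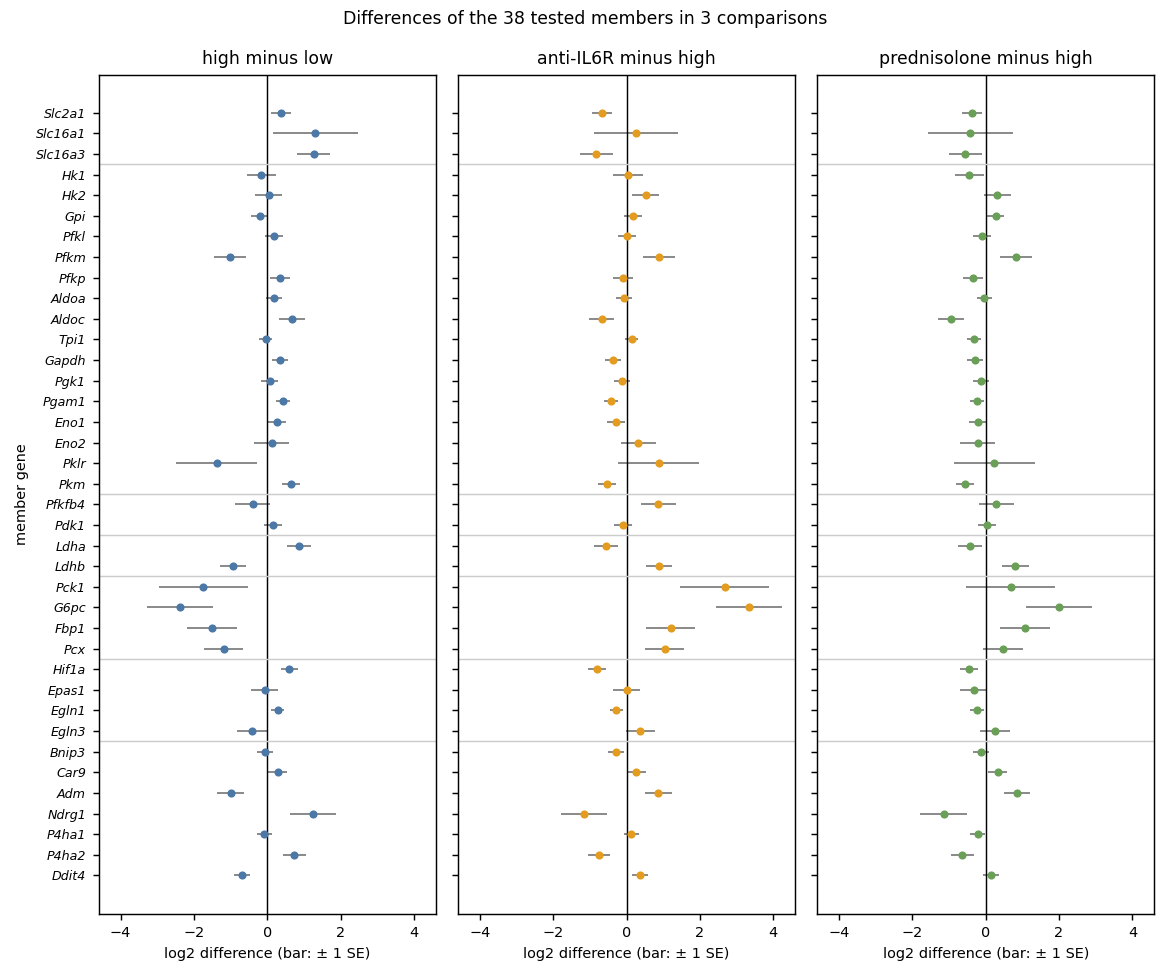
Log2 difference of each of the 38 tested genes (points) with 1 SE either way (bars) in high-difference minus low-difference, anti-IL6R minus untreated high-difference and prednisolone minus untreated high-difference grafts, grouped by role. The 4 gluconeogenic genes lay left of 0 in the first panel and right of 0 in the other panels, of which Pck1 and Pcx changed side in the prednisolone panel when array 2 of the high-difference or of the prednisolone pair was dropped, and no gene passed the adjusted threshold.

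Further genes of the pathways were taken from lists drawn up by function. Of 31 other genes of glucose metabolism on the array, 12 were higher and 19 lower in high-difference than in low-difference grafts, 19 higher and 12 lower under anti-IL6R, and 16 higher and 15 lower with prednisolone. Of 28 other tested genes of the hypoxia pathway, the counts were 18 and 10, 15 and 13, and 10 and 18. None of these genes passed the adjusted threshold in these 3 comparisons. Tkt, the transketolase of the pentose phosphate pathway, was higher by 0.56 (SE 0.18, adjusted p 0.31) in high-difference than in low-difference grafts and at -0.64 (SE 0.18, adjusted p 0.21) under anti-IL6R.

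Hk3, a hexokinase of white blood cells, was at -3.85 and -3.93 in high-difference grafts, -2.04 and -1.94 in low-difference grafts, -1.63 and -1.48 with anti-IL6R, and -0.88 and -3.05 with prednisolone. Both high-difference arrays were the lowest of the 8. The difference under anti-IL6R was 2.33 (SE 0.63, adjusted p 0.21), with an adjusted p of 0.028 when the prednisolone group was left out. With prednisolone the difference was 1.92 (SE 0.63, adjusted p 0.37). Igfbp3, an insulin-like growth factor binding protein that hypoxia can raise, was at 1.89 and 0.40 in high-difference grafts against 3.88 and 3.75 in low-difference grafts. It differed by -2.67 (SE 0.60, adjusted p 0.30). Eno3, the muscle enolase, was at -1.02 (SE 0.28, adjusted p 0.31) in the same comparison and at 0.85 (SE 0.28, adjusted p 0.36) with prednisolone, and Taldo1, the transaldolase, at -0.52 (SE 0.19, adjusted p 0.39) with prednisolone.

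The treatments, which lay on the same slide, were also set against each other, and 30 of the 38 differences changed sign under at least 1 alternative or without 1 array. The widest was that of Pck1, at -1.99 (SE 1.21), where 1 prednisolone array lay below both anti-IL6R arrays and the other between them. Prednisolone was higher than anti-IL6R for 15 genes and lower for 23, with a median of -0.06, beside 0.01 over all genes, of which 51.9% were higher and 48.1% lower. Tpi1, which interconverts the triose phosphates, was the 1 gene at an unadjusted p under 0.05, with -0.46 (SE 0.18, adjusted p 1), where 3.4% of all genes were past that threshold (0.822% higher, 2.58% lower) and 0% past the adjusted one. Without the low-difference group, 0 of the 38 genes and 685 of all 24462 had an unadjusted p under 0.05. With all groups these counts were 1 and 831. The split of 15 and 23 was 22 and 16 without the first prednisolone array. Tpi1 was at 4.28 and 4.53 with anti-IL6R and at 3.98 and 3.90 with prednisolone, without overlap. Arrays did not overlap for 1 gene that was higher and 3 that were lower with prednisolone, where the share over all genes was 14.3% and 11.9%. All 4 gluconeogenic genes were lower with prednisolone (median -0.96), of which only G6pc did not overlap, at -1.36 (SE 0.90, adjusted p 1), and without the first prednisolone array 2 of the 4 were higher. The prednisolone arrays differed from each other by 3.55 for Slc16a1, 3.52 for Pck1 and 3.45 for Pklr.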

How the data were processed

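RNA of 8 grafts, 1 µg each, was labelled with Cy3 for 1-colour Agilent arrays, per the labels' protocols. Per the file headers, spots were read with Agilent's software Feature Extraction (version 9.5.1.1). The deposited intensity of a spot, its processed signal, was background-subtracted within the array by that software. The authors' deposited value table holds the same intensities times 1 factor per array. Log2 intensities were computed here from the deposited signals, the array's 75th percentile was subtracted, and 765 probes with a flagged spot were left out. A probe was tested if the 2 arrays of any group had it well above background (28686 probes, 24462 genes, the brightest probe per gene; 11561 probes did not pass). Names followed the files, updated through RefSeq by accession (10735 probes), symbol (5577) or synonym (3730), while 20970 kept the file's name. Among 9 of the genes described with several tested probes, the probes disagreed in sign for Ndrg1 and Pgam1, between the treatments only. A second Eno1 probe was flagged on 1 array and left out.

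Groups came from the labels. One limma 3.58.1 fit (R 4.3.3; lmFit, contrasts.fit, eBayes) of all 8 arrays gave 4 residual and 2.37 prior degrees of freedom, with Benjamini-Hochberg adjustment over all genes at 0.05. The scripts were tested on simulated data. "At least" folds set the brighter group against the higher of the dim probe's own signal and the lowest signal well above background. The number of arrays limits the precision. The genes and lists were chosen with earlier results of these data known. Values of every array were given for the tested genes of a list of 20 named genes. They were also given for the 6 genes with the smallest p in each comparison with untreated high-difference grafts. Of the further pathway genes, the 2 each way with the smallest p were taken, not all with the values of every array. Some genes that this rule took are not reported here. Alternatives were normexp correction, quantile normalization, the authors' table, 2 probe filters, the mean of probes, a replicate block, fits of fewer groups, and each array left out.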

Additional observations from a re-analysis of the deposited data

How the results depend on the processing

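None of the 38 genes passed the adjusted threshold under any of the 17 alternatives and leave-outs, and over all settings run 9, 14, 19 and 30 of the 38 changed sign at least once (high minus low, anti-IL6R minus high, prednisolone minus high, prednisolone minus anti-IL6R). Of 75 differences of the genes taken by the naming rule, in the first 3 comparisons, 57 kept their sign in all. Over all genes, quantile normalization gave 3, 7, 4 and 2 calls in these comparisons, where the main setting gave 0 in each. The authors' table gave 1 and 1 in the first and second of these, and leaving out the prednisolone group gave 28 and 169. Leaving out 1 array gave 0 to 39, 0 to 169, 0 to 224 and 0 to 130 calls. The cause was not tested. Normexp correction moved the share of all genes above 0 from 56% to 66.4%, 43.2% to 28.3%, 42.4% to 34.8% and 51.9% to 66.7%, and the median from 0.07 to 0.14, -0.09 to -0.22, -0.08 to -0.12 and 0.01 to 0.10. Over the 250 bases before the start alone, 61.0% of the promoters of these genes and 36.7% of all promoters held a core. The gaps between replicates 1 and 2 correlated between groups at -0.35 to 0.37. With 2 arrays per group this cannot show whether the replicate numbers of the labels pair the arrays. With these numbers as a replicate block, 0 genes were called in each comparison. Of the 38 genes, 6, 2, 1 and 0 then had an unadjusted p under 0.05. Over all 24462 genes tested these counts were 2865, 3531, 2430 and 736.

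The differences among these 75 that changed sign did so as follows. With normexp correction, Hk2 was -0.45, Epas1 -0.02 and Car9 -0.01 in anti-IL6R minus high, and Hk2 -0.21 in prednisolone minus high. With quantile normalization, Taldo1 was -0.07 in high minus low, and Taldo1 0.07 in anti-IL6R minus high, where Epas1 was -0.06 with the authors' table. Over the fits without 1 array, Hk2 ranged from -0.39 to 0.47, Pdk1 from -0.08 to 0.38 and Epas1 from -0.24 to 0.10 in high minus low, and Pdk1 from -0.33 to 0.13 and Epas1 from -0.13 to 0.15 in anti-IL6R minus high. In prednisolone minus high those ranges were -1.18 to 0.05 for Slc16a3, -0.03 to 0.67 for Hk2, -1.49 to 1.96 for Pklr, -0.19 to 0.27 for Pdk1, -1.08 to 2.44 for Pck1, -0.88 to 0.21 for Epas1, -0.31 to 0.82 for Egln3, -0.02 to 0.68 for Car9 and -0.07 to 0.35 for Ddit4. Hk3, which is not among the 38, passed without the prednisolone group in high minus low (-1.90, adjusted p 0.046) and anti-IL6R minus high (2.33, adjusted p 0.028). In prednisolone minus high Hk3 was at 1.92, at 0.84 without the first prednisolone array and at 3.01 without the second.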
